A study of Mus musculus with 6 samples.

Results

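The genes described here encode proteins that bring fatty acids into cells or carry them once inside. They were taken by name as 10 rows of the 54532 in the count table: the receptors Cd36 and Vldlr, the transporters Slc27a1, Slc27a4 and Slc27a5, and the binding proteins Fabp1, Fabp2, Fabp4, Fabp5 and Fabp7. All 10 passed the filter on low counts and were among the 13693 genes tested. Bulk RNA of whole liver was sequenced in 6 libraries from male littermate mice that were 8 weeks old when a high-fat diet, which makes the liver fatty, began and stayed on it for 8 weeks. The groups were 3 livers labelled Trem2 KO (replicates 4, 5 and 6), from mice deficient in the macrophage lipid receptor Trem2, and 3 labelled WT (replicates 1, 2 and 3), all fed that diet. The sources used here do not say how the Trem2 allele was made or in which cells it acts. The one comparison in the design, KO over WT, asks how liver expression on this diet differs without Trem2.

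Long-chain fatty acids reach hepatocytes bound to albumin or inside lipoproteins, and cross the cell membrane by diffusion and with the help of membrane proteins. CD36 binds them at the surface, the FATP proteins encoded by the Slc27a genes join them to coenzyme A as they enter, and the small cytosolic FABP proteins hold them in solution and pass them to membranes and nuclear receptors. Liver FABP (Fabp1) is one of the most abundant proteins of the hepatocyte, whereas CD36 is scarce in a lean mouse liver and is known to increase in fatty liver. The other FABPs are named after the tissues where they prevail, such as gut, fat, skin and brain, and several are also found in macrophages and endothelium.

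Values are CPM, counts scaled to a library total of 1e6 adjusted with TMM factors, and changes are fitted log2 fold changes of KO over WT with their standard error (SE). Library totals lay between 11591021 and 20399361 counts. Trem2 itself had 9, 6 and 5 counts in the KO-labelled libraries and 7, 26 and 26 in the WT-labelled ones, so that the library labelled WT replicate 1 lay inside the KO range and the labels are used as given. That library also stood apart among the genes described here, with the lowest CPM of the 6 for 6 of the 10 genes and the highest for 3. The share of counts from the mitochondrial genome was 28.0%, 9.08% and 19.8% in KO replicates 4, 5 and 6 and between 8.16% and 12.7% in WT. With mitochondrial genes and the 10 most abundant genes left out of the TMM scaling, the log2 change of Cd36 was 1.66 and 0 of the 10 genes were called. Beyond this scaling, the part of the mitochondrial share in the results was not tested. KO replicate 5 held transcripts of fat and muscle that the other libraries nearly lacked, which is described with Fabp4. Hepatocyte markers were abundant in every library, at a summed 80541 to 88755 CPM in KO and 81161 to 124851 CPM in WT livers, and Alb and Apoa1 were the most abundant. Of these 10 markers 9 were fitted lower in KO, with a median log2 change of −0.43, as were 6963 of all 13693 tested genes. For 1 of the 10, Apoa1, all KO values lay below all WT values, as they did for 5.73% of all tested genes. WT replicate 1 was the highest of the 6 libraries for 9 of the 10.

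None of the 10 genes was called by edgeR (quasi-likelihood test, threshold 0.05 on the p adjusted over all 13693 genes), which called 0.0146% of all genes higher in KO and 0 lower. Fitted values were higher in KO for 8 of the 10 and lower for 2, with a median log2 change of 0.37, against −0.01 over all tested genes. For Cd36, Fabp2, Fabp4, Fabp7 and Vldlr, 5 of the 10, all KO values lay above all WT values in CPM, as they did for 8.12% of all tested genes. For Fabp2 this depended on the scaling, as described with that gene. None lay wholly below, against 5.73% of all genes. At an unadjusted p under 0.05 stood 3 genes higher in KO (Cd36, Fabp4 and Fabp7) and 1 lower (Fabp5), where all genes gave 5.37% and 3.21%. The genes were picked with earlier results of these data known, so these shares describe them and do not test them.

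**Figure D1:**
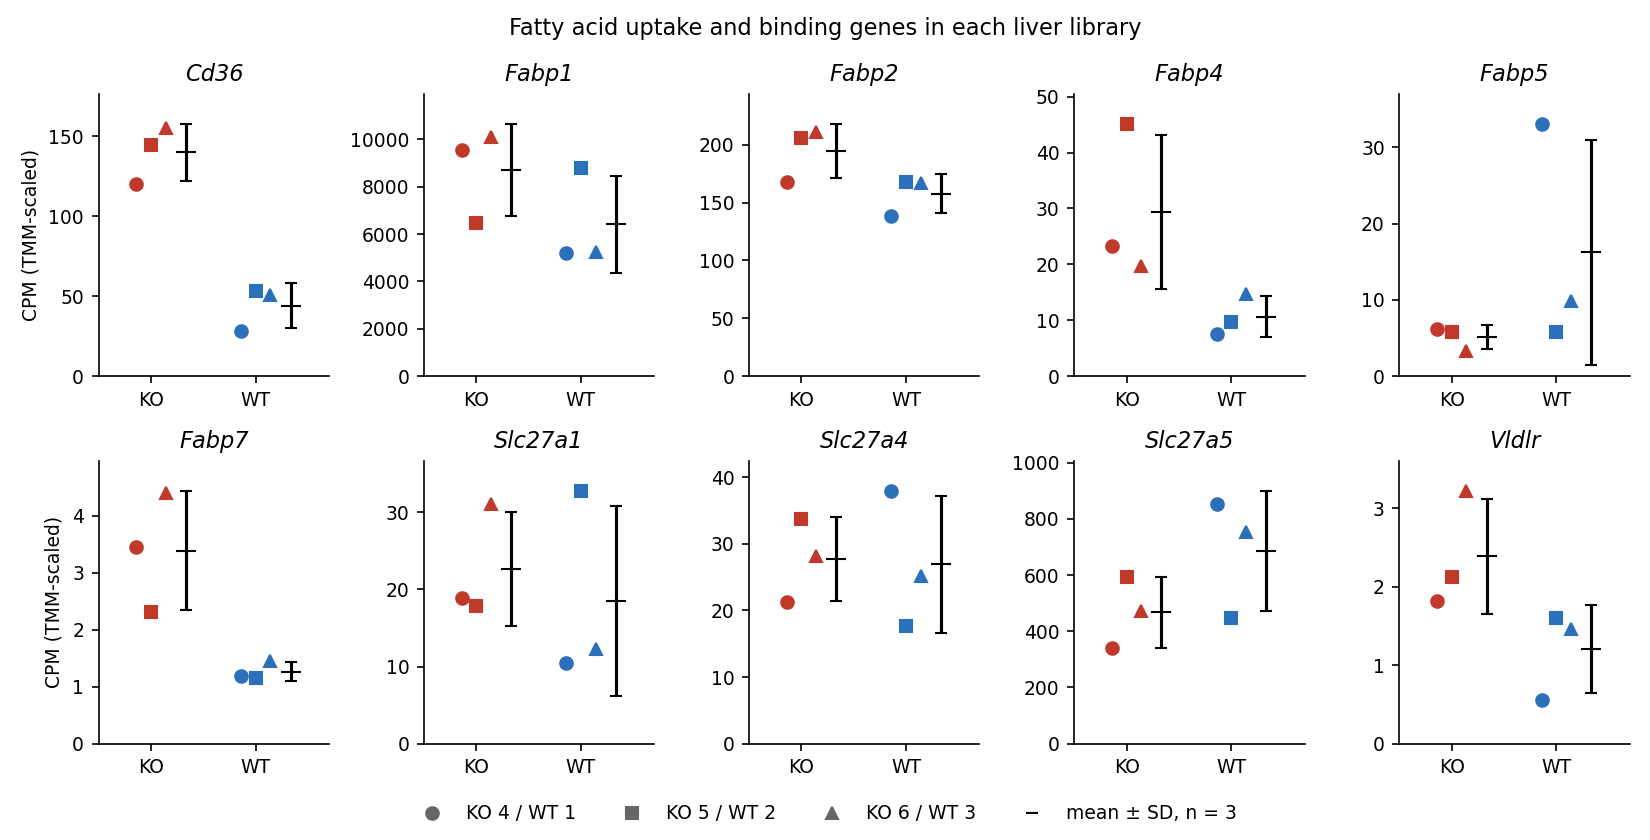
CPM of each gene in every liver library, with KO on the left and WT on the right; points are libraries, their shapes do not pair livers across groups, and the bar is the mean ± SD of 3 libraries. The 3 KO values of Cd36, between 120 and 155 CPM, sit above the WT values, between 27.9 and 53.3 CPM. The groups overlap for Fabp1, Fabp5, Slc27a1, Slc27a4 and Slc27a5.

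Cd36, the membrane glycoprotein that binds fatty acids and oxidised lipoproteins, showed the clearest separation of the 10. The gene (ENSMUSG00000002944, mm10 chromosome 5, 17781690 to 17888801, minus strand) had 120, 144 and 155 CPM in KO replicates 4, 5 and 6, against 27.9, 53.3 and 50.7 CPM in WT replicates 1, 2 and 3. The lowest KO liver was more than 2 times as high as the highest WT liver, and the groups did not overlap. The means were 140 ± 17.7 CPM in KO and 44.0 ± 13.9 CPM in WT livers (SD, n = 3 each), a 3.18-fold difference (log2 1.67, SE 0.29). Its edgeR p ranked 18th among all tested genes, with an adjusted p of 0.297, and the two-sided exact permutation test over the 6 libraries gave p = 0.1, the smallest this design allows. DESeq2 called the gene (log2 1.65, adjusted p = 9.08e-05, in a fit that called 0.818% of all genes higher and 0.467% lower), as did edgeR without the filter on low counts (log2 1.65, adjusted p = 0.0163, 0.158% of genes called higher and 0.0893% lower). Limma-voom with sample quality weights called it too (log2 1.58, adjusted p = 0.00495), but that fit called 15.1% of all genes higher and 14.6% lower, while limma-voom without weights called none of the 10 and 0.0073% of all genes higher. With any 1 library left out the log2 change stayed between 1.43, without WT replicate 1, and 1.82, without WT replicate 2, and it was 1.64 without KO replicate 5.

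Macrophages and sinusoidal endothelium also carry CD36, and their part in the Cd36 difference was not tested. All 10 macrophage markers were fitted higher in KO, as were 6730 of all 13693 tested genes, and none was called by edgeR. For 6 all KO values lay above all WT values, as they did for 8.12% of all tested genes. The macrophage list summed to 155 to 245 CPM in KO and 92.2 to 132 CPM in WT, and no marker of it was at 0 in any library. Clec4f, a Kupffer cell lectin, averaged 100 ± 37.1 CPM in KO and 52.3 ± 13.2 CPM in WT livers, and Cd5l, a secreted macrophage protein, 25.6 ± 2.48 and 19.6 ± 3.83 CPM in KO and WT (SD, n = 3 each). All 10 endothelial markers were likewise fitted higher, with none called and 3 without overlap, with a summed 301 to 451 CPM in KO and 187 to 251 CPM in WT. Eng, the endothelial receptor endoglin, averaged 140 ± 41.9 CPM in KO and 68.1 ± 16.1 CPM in WT, and Stab1, a scavenger receptor, 90.4 ± 34.0 CPM in KO and 44.4 ± 19.3 CPM in WT. The groups overlapped for Clec4f and Stab1, and for Cd5l the lowest KO liver, at 23.9 CPM, was barely above the highest WT liver, at 23.5 CPM. Markers of stellate cells, the fat-storing cells beside the sinusoids, were fitted higher for 4 of 8 and lower for 4, with none called. Their log2 changes lay between −0.24 and 2.38. For 3 of the 8 all KO values lay above all WT values, and for 0 all lay below. The stellate list summed to 153 to 273 CPM in KO and 156 to 173 CPM in WT. In RNA of whole tissue, more cells of a type and more RNA per cell cannot be told apart.

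Vldlr, the receptor that binds very-low-density lipoprotein and prevails in heart, muscle and fat, was the scarcest of the 10. The gene (ENSMUSG00000024924, chromosome 19, 27216484 to 27254231) had 20, 46 and 49 counts in KO replicates 4, 5 and 6, or 1.81, 2.13 and 3.21 CPM, against 9, 25 and 30 counts in WT replicates 1, 2 and 3, or 0.560, 1.60 and 1.46 CPM. The KO livers were all above the WT livers, by a narrow margin between KO replicate 4 and WT replicate 2. The exact 95% Poisson intervals of those libraries, which cover counting error only, were 1.11 to 2.80 CPM and 1.03 to 2.36 CPM, so their order was not resolved at this depth. The fitted log2 change was 0.98 (SE 0.49, adjusted p = 0.625), and 0.64 without WT replicate 1. Limma-voom with sample quality weights called Vldlr (log2 1.00, adjusted p = 0.0451), in a fit that called 15.1% of all genes higher and 14.6% lower.

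Promoter windows of the RefSeq table (build GRCm38.p6) were available for 7 of the 10 genes, all but Fabp4, Fabp5 and Slc27a5. They are shown for Cd36, the gene with the widest gap between the groups, and for Fabp1, the most abundant, because each window holds a close match to the element bound by PPAR and RXR receptors, nuclear receptors that respond to fatty acids. The element searched was AGGTCANAGGTCA, a pair of half-sites 1 base apart, on both strands with up to 2 mismatches. Bases within annotated exons are left out, capitals mark the match, and both matches read on the minus strand of the gene, so that the printed letters are the reverse complement of the element.
Cd36, chr5:17835897-17836146, minus strand: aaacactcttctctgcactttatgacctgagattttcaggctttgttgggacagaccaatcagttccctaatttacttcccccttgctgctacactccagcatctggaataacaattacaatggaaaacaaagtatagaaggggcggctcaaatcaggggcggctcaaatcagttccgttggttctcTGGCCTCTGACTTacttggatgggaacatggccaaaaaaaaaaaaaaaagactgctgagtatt
Fabp1, chr6:71199629-71199826, plus strand: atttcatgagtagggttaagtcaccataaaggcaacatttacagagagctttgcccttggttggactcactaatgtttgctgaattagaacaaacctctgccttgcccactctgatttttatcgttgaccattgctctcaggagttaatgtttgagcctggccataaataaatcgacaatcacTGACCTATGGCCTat
The Cd36 match has 2 mismatches and lies 63 to 51 bases before the RefSeq start of transcription, and the Fabp1 match has 1 mismatch and lies 67 to 55 bases before that of Fabp1. The RefSeq start of Fabp1 lies downstream of the gene start in the count table, and the 52 bases between them, which are exonic in GENCODE, are the part left out. Of all 32851 windows in the table, 3.24% hold a match with up to 2 mismatches and 0.484% one with up to 1. The Cd36 window lies at an inner start of the gene, which has 6 annotated transcripts, and the counts do not say which start was used. Among the other 5 genes with a window, the 250 bases upstream of each held no match with up to 2 mismatches. A match of letters is a description and shows no binding.

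Of the FATP transporters, Slc27a5 was the main one of this set in liver and the only one fitted lower in KO. Slc27a5 (ENSMUSG00000030382, chromosome 7, 12988346 to 12998192) encodes the liver-restricted FATP5, which also joins bile acids to coenzyme A. It had 340, 593 and 472 CPM in KO replicates 4, 5 and 6, against 855, 446 and 755 CPM in WT replicates 1, 2 and 3. WT replicate 2 fell among the KO livers, so the groups overlapped. The log2 change was −0.55 (SE 0.33, adjusted p = 0.658), and between −0.79 and −0.36, the value without WT replicate 1, with 1 library left out. It was −0.17 with WT replicate 1 and KO replicate 4 both left out.

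Slc27a1, the transporter of muscle and fat (ENSMUSG00000031808, chromosome 8, 71568882 to 71587302), had 19.0, 17.8 and 31.2 CPM in KO replicates 4, 5 and 6, against 10.5, 32.7 and 12.3 CPM in WT replicates 1, 2 and 3. Each group held 1 liver well above its other two, and the log2 change of 0.29 (SE 0.46, adjusted p = 0.837) became 0.98 without WT replicate 2, 0.01 without WT replicate 1, 0.04 without WT replicate 3, 0.44 without KO replicate 5 and −0.01 without KO replicate 6. Slc27a4, the transporter best known from the gut (ENSMUSG00000059316, chromosome 2, 29802634 to 29817522), had 21.3, 33.8 and 28.1 CPM in KO, against 37.9, 17.6 and 25.2 CPM in WT. Its WT livers spanned the whole KO range, and the log2 change was 0.05 (SE 0.31, adjusted p = 0.964). It was negative without KO replicate 5 (−0.13), WT replicate 2 (−0.19) or WT replicate 3 (−0.03), and 0.37 without WT replicate 1.

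The other FATP genes also showed no difference that the test could resolve. Slc27a2, which encodes another hepatic transporter, averaged 1855 ± 591 CPM in KO and 1861 ± 510 CPM in WT livers (SD, n = 3 each; log2 −0.005, SE 0.33, adjusted p = 0.998). It was more abundant than Slc27a5, also per length. In deposited FPKM, values scaled by gene length, Slc27a2 averaged 486 in KO and 502 in WT, and Slc27a5 188 and 284. Slc27a3, of the same family, averaged 1.43 ± 0.480 CPM in KO and 1.40 ± 0.887 CPM in WT (log2 0.02, SE 0.57, adjusted p = 0.992). Slc27a6, the heart transporter, had 0, 2 and 0 counts in KO and 0, 2 and 0 in WT, too few to test.

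Fabp1, the liver fatty acid binding protein, dominated the binding proteins in both groups. The gene (ENSMUSG00000054422, chromosome 6, 71199827 to 71205023) had 9571, 6484 and 10085 CPM in KO replicates 4, 5 and 6, against 5204, 8786 and 5236 CPM in WT replicates 1, 2 and 3. WT replicate 2 lay above KO replicate 5, so the groups overlapped. The log2 change was 0.44 (SE 0.34, adjusted p = 0.693), and it was 0.73 without WT replicate 2 and 0.29 without WT replicate 3. Fabp1 alone took 0.910%, 0.713% and 0.966% of all counts in KO replicates 4, 5 and 6 and 0.456%, 0.991% and 0.529% in WT replicates 1, 2 and 3. Among the counts of the 5 binding proteins described here its share was 96.2% to 97.9% in KO and 96.4% to 97.9% in WT.

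Fabp2, the intestinal binding protein (ENSMUSG00000023057, chromosome 3, 122895072 to 122899506), was well measured in these livers, with 168, 205 and 211 CPM in KO replicates 4, 5 and 6, against 138, 167 and 167 CPM in WT replicates 1, 2 and 3. KO replicate 4 exceeded the nearest WT liver by less than 1 CPM, so that the separation of the groups rested on almost nothing there. In the deposited FPKM the groups overlapped, with KO replicate 4 at 171.6, below WT replicates 2 and 3 at 172.2 and 172.0. The log2 change of 0.30 (SE 0.21, adjusted p = 0.676) ranged between 0.22 and 0.40 with 1 library left out. Of 8 enterocyte markers, Sis, Alpi and Fabp6 had 0 counts in all 6 libraries, while Mttp and Anpep, which hepatocytes also express, made up most of the summed 249 to 337 CPM in KO and 248 to 474 CPM in WT. The antisense gene 4933405D12Rik spans Fabp2, and the sources used here do not say whether counting used strand, so reads of the overlap could be assigned to either gene.

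Fabp4, the binding protein of fat cells, macrophages and capillary endothelium, was higher in all KO livers, with KO replicate 5 far above the rest. The gene (ENSMUSG00000062515, chromosome 3, 10204088 to 10208576, minus strand) had 23.2, 45.1 and 19.7 CPM in KO replicates 4, 5 and 6, against 7.53, 9.72 and 14.7 CPM in WT replicates 1, 2 and 3. The means were 29.4 ± 13.8 CPM in KO and 10.6 ± 3.66 CPM in WT livers (SD, n = 3 each), a 2.76-fold difference (log2 1.46, SE 0.39, adjusted p = 0.400; two-sided exact permutation p = 0.1). DESeq2 called it at an adjusted p of 0.0454 (log2 1.44), in a fit that called 0.818% of all genes higher and 0.467% lower. Limma-voom with sample quality weights gave a log2 change of 0.68 (adjusted p = 0.0585). Without KO replicate 5 the log2 change was 1.01 (SE 0.31, unadjusted p = 0.0144, adjusted p = 0.208), and with other libraries left out it lay between 1.27 and 1.74.

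KO replicate 5 also held transcripts of adipocytes and skeletal muscle. Adipoq, the hormone adiponectin of fat cells, had 2, 125 and 0 counts in KO replicates 4, 5 and 6 and 1, 0 and 0 in WT replicates 1, 2 and 3. Together with Plin1, Lep and Retn, it summed to 343 counts in KO replicate 5, 7 in KO replicate 4, 1 in KO replicate 6 and 0 to 1 in the WT libraries. Over the whole list of 8 adipocyte markers the sums were 52.9 to 89.3 CPM in KO and 12.6 to 96.9 CPM in WT, mostly from Cfd, a complement factor, and Adrb3, a receptor, which were counted in all libraries.

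The muscle list behaved in the same way. Its 6 genes, which include the creatine kinase Ckm and the myoglobin gene Mb, summed to 1544 counts in KO replicate 5, or 71.4 CPM, against 2 and 1 counts in KO replicates 4 and 6 and 0, 4 and 0 counts in WT replicates 1, 2 and 3. Fabp3, the binding protein of muscle and heart, which was too scarce to be tested, followed it with 5, 140 and 0 counts in KO replicates 4, 5 and 6 and 1, 0 and 2 counts in WT replicates 1, 2 and 3. The part of these tissues in the Fabp4 level of KO replicate 5 was not tested. In KO replicates 4 and 6, where Adipoq had 2 and 0 counts, Fabp4 was at 23.2 and 19.7 CPM.

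**Figure D2:**
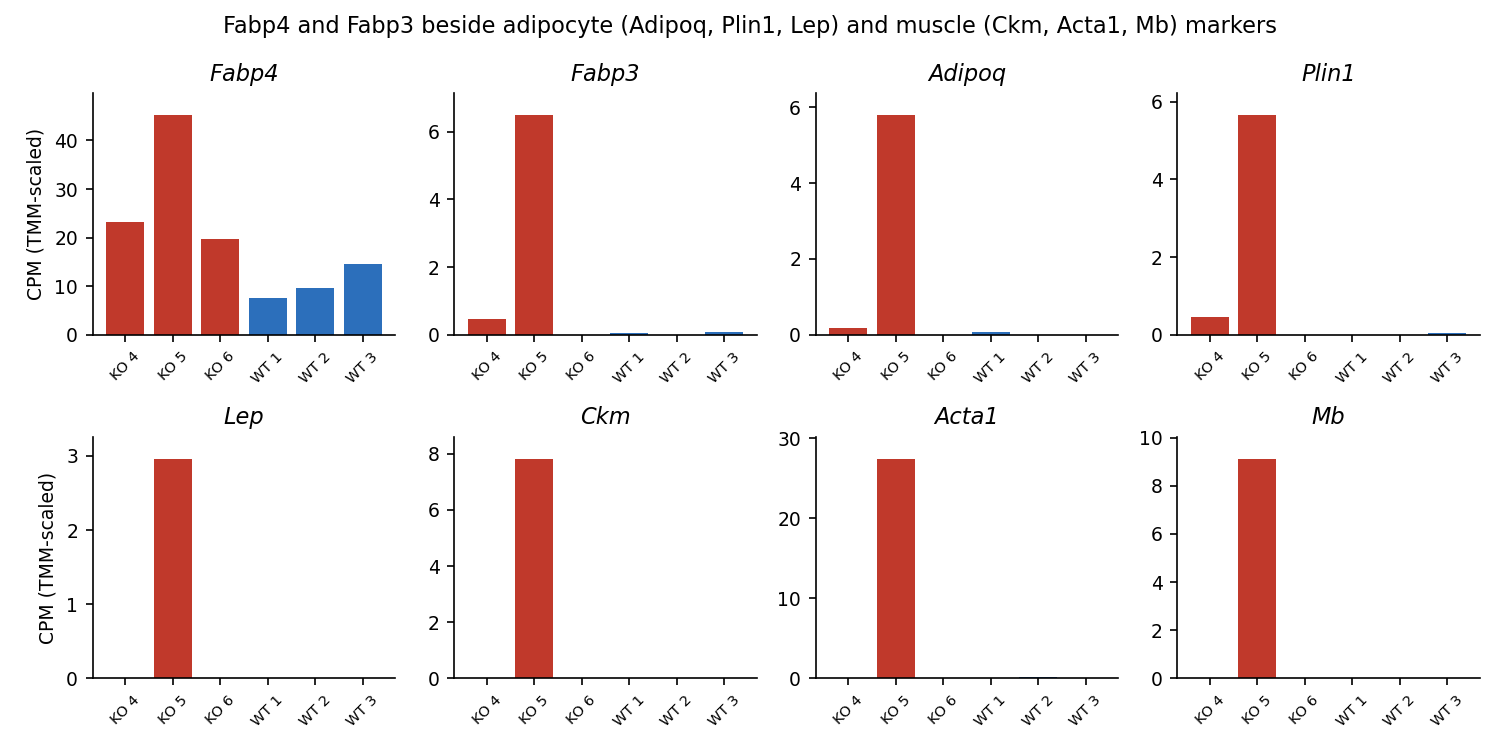
CPM of Fabp4 and Fabp3 and of adipocyte and skeletal muscle markers in each library, as bars from 0, with KO libraries on the left and WT on the right. KO replicate 5 stands far above the other libraries for every marker shown and for Fabp3, at 6.48 CPM, while Fabp4 is present in all 6.

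Fabp5, the epidermal binding protein that macrophages also use, was fitted lower in KO, a value that rested on 1 WT liver. The gene (ENSMUSG00000027533, chromosome 3, 10012548 to 10016607) had 6.17, 5.83 and 3.34 CPM in KO replicates 4, 5 and 6, against 33.1, 5.75 and 9.91 CPM in WT replicates 1, 2 and 3. WT replicate 1 was more than 3 times as high as any other liver, and WT replicate 2 lay within the KO range. The log2 change was −1.67 (SE 0.63, unadjusted p = 0.0290, adjusted p = 0.526) with all libraries and −0.62 (SE 0.39, unadjusted p = 0.150) without WT replicate 1. The exact permutation test gave p = 0.3. The processed copy Fabp5l2 was listed at 0 in all libraries, and the sources used here do not say how reads matching several places were treated.

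Fabp4 and Fabp5 lie in 1 cluster of FABP genes on chromosome 3, 187480 bases apart, and their fitted changes had opposite signs. Of 12 annotated genes from Fabp5 to Fabp12 these were the 2 tested. Pmp2, the myelin binding protein, and Fabp9, that of testis, lie between them and had 0 counts in all 6 libraries, as did the ileal Fabp6 on another chromosome. Fabp12 had 0, 0 and 6 counts in KO and 1, 1 and 0 in WT.

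Fabp7, the binding protein of brain and radial glia that is also reported in Kupffer cells, was scarce but higher in every KO liver. The gene (ENSMUSG00000019874, chromosome 10, 57784881 to 57788450) had 38, 50 and 67 counts in KO replicates 4, 5 and 6, against 19, 18 and 30 counts in WT replicates 1, 2 and 3. Scaled, these were 3.45, 2.31 and 4.39 CPM in KO and 1.18, 1.15 and 1.46 CPM in WT, with no overlap. The nearest livers, KO replicate 5 and WT replicate 3, had Poisson intervals of 1.72 to 3.05 CPM and 0.983 to 2.08 CPM, which overlap. The log2 change was 1.41 (SE 0.38, adjusted p = 0.400; two-sided exact permutation p = 0.1), and between 1.17 and 1.62 with 1 library left out. Of 7 glial and neural markers 3 were tested, among them Aqp4, a water channel, which averaged 4.70 ± 0.920 CPM in KO and 5.19 ± 1.51 CPM in WT (SD, n = 3 each). The glial list summed to 10.7 to 15.8 CPM in KO and 8.21 to 8.96 CPM in WT, with Gfap at 0 in KO replicate 6 and Sox10 at 0 in KO replicate 6 and WT replicate 1. The part of nerve or macrophage transcripts in the Fabp7 difference was not tested.

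**Figure D3:**
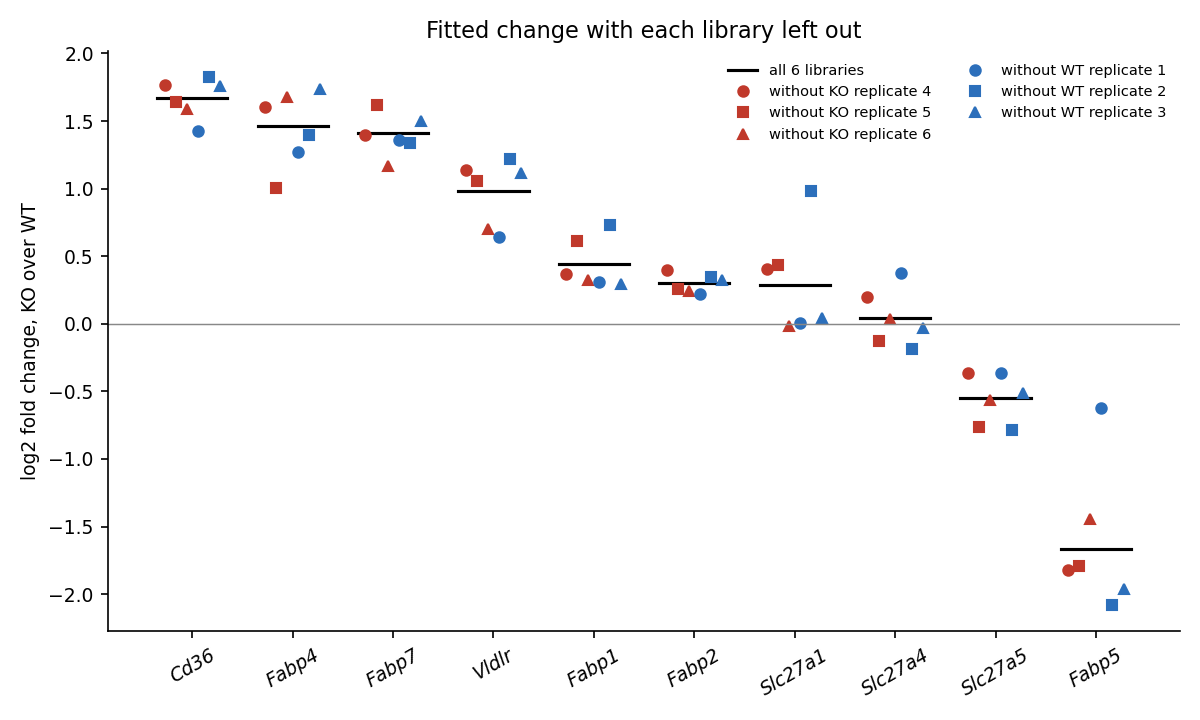
Fitted log2 fold change of KO over WT for each gene with all 6 libraries (black line) and with 1 library left out (points, red for a KO and blue for a WT library). Cd36 stays between 1.43 and 1.82, Fabp5 moves to −0.62 without WT replicate 1, and Slc27a1 and Slc27a4 cross 0.

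Levels could be set against each other per length with the authors' deposited FPKM values, fragments scaled by gene length and library depth. Averaged over the 6 libraries Fabp1 came first at 13570 FPKM, then Slc27a5 at 236, Fabp2 at 181 and Cd36 at 25.3. Then came Slc27a4 at 6.18, Fabp4 at 4.39, Slc27a1 at 3.50, Fabp5 at 3.03 and Fabp7 at 1.84, with Vldlr last at 0.176 FPKM. Fabp1, Fabp2 and Fabp7 lay above the next gene in all 6 libraries with no overlap of their ranges. Slc27a5 and Fabp2 overlapped, as did each neighbouring pair from Cd36 down to Fabp7. Cd36 was at 33.1, 39.1 and 42.7 FPKM in KO, above Slc27a4 in each KO liver, while in WT replicate 1 Cd36 at 8.06 FPKM lay below Slc27a4 at 8.90 FPKM.

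Part of that order depends on the gene lengths in the deposited table. For Fabp4 the listed length, 4489 bases, is the full span of the gene, introns included, and 5.01 times the 896 bases of its main coding transcript in GENCODE vM21. For Fabp5 it is 3567 bases, 3.61 times the 987 of the main transcript, whereas for Fabp1 and Fabp2 the lengths are equal. Per kilobase of the main transcript, Fabp4 averaged 32.8 ± 15.4 CPM in KO and 11.9 ± 4.08 CPM in WT livers, close to Cd36 at 41.2 ± 5.22 CPM in KO and 12.9 ± 4.10 CPM in WT (SD, n = 3 each). The order then ran Fabp1, Slc27a5, Fabp2, Cd36, Fabp4, Fabp5, Slc27a1, Slc27a4, Fabp7 and Vldlr. Differences between groups do not depend on these lengths.

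**Figure D4:**
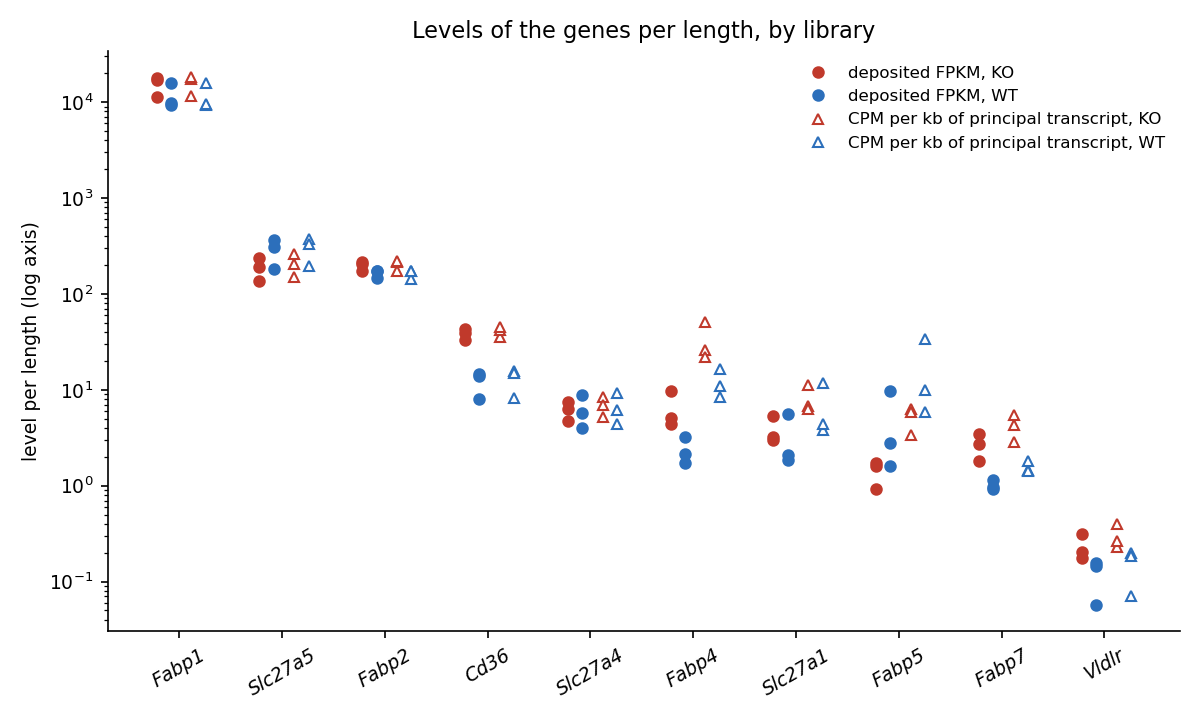
Level of each gene per length in every library on a log axis, in the order of mean deposited FPKM; filled circles are deposited FPKM, open triangles CPM per kilobase of the main GENCODE transcript, with KO (red) left of WT (blue). Fabp1 lies far above the rest, and Fabp4 and Fabp5 move up with the shorter transcript length.

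The neighbouring steps of the pathway were mixed, and edgeR called none of their tested genes. Of 15 genes of lipoprotein and fatty acid delivery 14 were tested, 9 fitted higher and 5 lower in KO, with a median log2 change of 0.48. Mfsd2a, a transporter of lysophospholipids, averaged 375 ± 229 CPM in KO and 177 ± 37.8 CPM in WT livers (SD, n = 3 each; log2 1.08, SE 0.42, adjusted p = 0.539). KO replicate 4, at 638 CPM, carried that mean, and the lowest KO liver, at 215 CPM, was barely above the highest WT liver, at 214 CPM. Lrp1, the endocytic receptor that clears lipoprotein remnants, averaged 345 ± 71.2 CPM in KO and 580 ± 72.8 CPM in WT (log2 −0.75, SE 0.24, adjusted p = 0.460), with no overlap. Cav2, a caveolin of endothelium and fat, averaged 4.66 ± 1.68 CPM in KO and 2.45 ± 0.881 CPM in WT (log2 0.93, SE 0.41, adjusted p = 0.585) and overlapped. KO replicate 5, the library with fat and muscle transcripts, was its highest at 6.48 CPM, against 4.35 and 3.15 CPM in KO replicates 4 and 6.

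Of 12 acyl-CoA synthetases and acyl-CoA carriers 10 were tested, 3 fitted higher and 7 lower in KO, with a median of −0.11. Acsl4, the synthetase that prefers arachidonic acid, had 16.6, 23.3 and 17.3 CPM in KO replicates 4, 5 and 6, against 40.0, 31.2 and 51.3 CPM in WT replicates 1, 2 and 3. All KO livers were below all WT livers (log2 −1.10, SE 0.25, adjusted p = 0.378). Acsl3, a synthetase of lipid droplets, averaged 14.2 ± 1.93 CPM in KO and 19.6 ± 3.59 CPM in WT (log2 −0.46, SE 0.22, adjusted p = 0.619), and its groups missed overlap narrowly, with the highest KO liver at 16.3 CPM and the lowest WT liver at 16.6 CPM. Acbd3, an acyl-CoA binding domain protein of the Golgi, averaged 11.5 ± 2.88 CPM in KO and 14.4 ± 1.47 CPM in WT (log2 −0.32, SE 0.24, adjusted p = 0.691).

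A chosen list of 11 transcription factors that act on genes of this kind, which is not exhaustive, was tested in full. Of these 4 were fitted higher and 7 lower, with a median of −0.06. Pparg, the fat-cell receptor that drives Cd36 and Fabp4 in adipocytes and macrophages, had 9.80, 13.0 and 10.6 CPM in KO replicates 4, 5 and 6, against 8.28, 9.46 and 7.04 CPM in WT replicates 1, 2 and 3. The KO livers were all above the WT livers, by a small margin (log2 0.43, SE 0.23, adjusted p = 0.638). Nr1i2, the pregnane X receptor, averaged 156 ± 61.6 CPM in KO and 101 ± 7.46 CPM in WT (log2 0.63, SE 0.32, adjusted p = 0.623). Cebpa, a hepatocyte and adipocyte factor, averaged 358 ± 81.2 CPM in KO and 454 ± 29.8 CPM in WT (log2 −0.34, SE 0.24, adjusted p = 0.680).

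**Figure D5:**
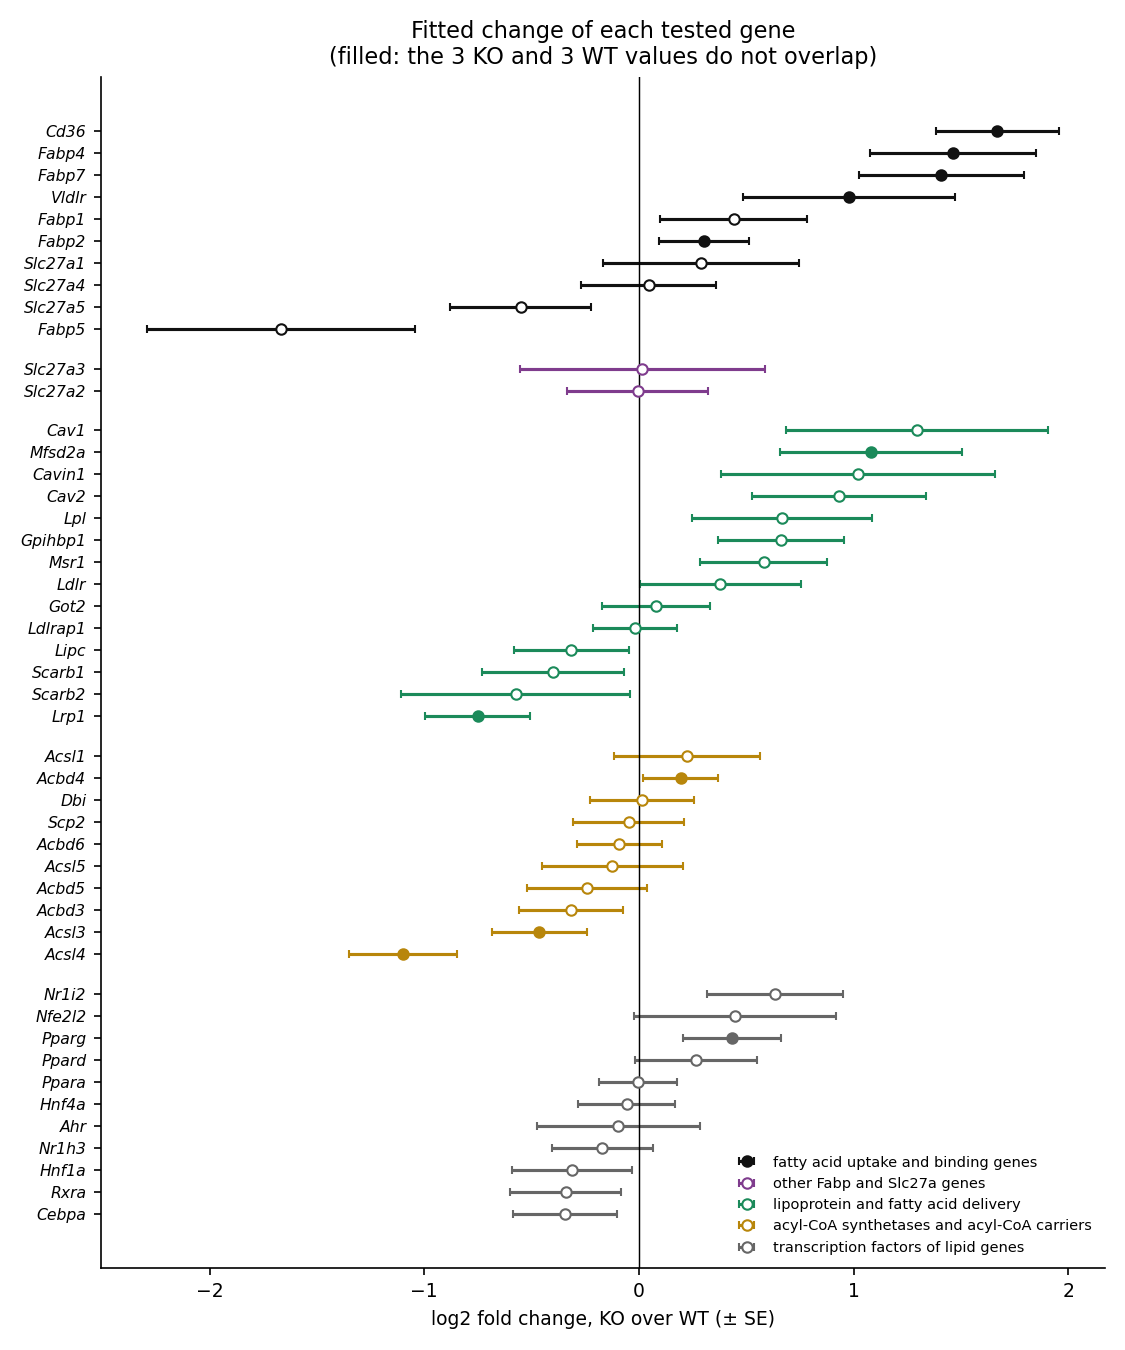
Fitted log2 fold change of KO over WT with its SE for each tested gene. The fatty acid uptake and binding genes are at the top and the transcription factors at the bottom. Filled points mark genes whose 3 KO and 3 WT CPM values do not overlap. Cd36, at 1.67, is the highest of the genes drawn and Fabp5, at −1.67, the lowest.

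The genes whose values over the 6 libraries lay closest to those of Cd36 and Fabp4, the 2 of the 10 with the smallest p, were sought among 11524 other protein-coding genes with a mean of at least 1 CPM. Likeness was the root mean square difference of log2 CPM after each gene was centred on its own mean. For Cd36 the nearest were Knstrn, a spindle protein, at 0.22, C1qtnf6, a secreted protein of the C1q family, at 0.22, and Cyp2c38, a cytochrome P450, at 0.24. Cyp2c38 averaged 105 ± 18.9 CPM in KO and 42.2 ± 18.3 CPM in WT livers, levels much like those of Cd36. For Fabp4 they were Anxa1, an annexin, at 0.17, Postn, the matrix protein periostin, at 0.23, and Slc25a4, the nucleotide carrier of muscle mitochondria, at 0.23. Postn averaged 16.6 ± 6.55 CPM in KO and 7.05 ± 2.82 CPM in WT (SD, n = 3 each).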

How the data were processed

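Liver RNA was extracted with Trizol and made into libraries from 1 ug of total RNA with a TruSeq kit, per the labels' protocols. The authors' deposited tables hold raw counts per gene and FPKM values for the same genes. Per the submitters' processing notes the build was mm10 and the tools were featureCounts 1.5.0-p3, HISAT2 2.0.5 and DESeq2 1.16.1; the notes give no roles, and the sources used here give no strand setting. Groups come from the sample titles, which number each library separately, so none are paired. Nothing states 1 mouse per library, so the spread behind the p-values may in part be technical. No pair of libraries agreed within sampling noise (chi-square per degree of freedom at least 46.9).

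The test on counts was that of edgeR 4.0.16 under R 4.3.3 (TMM scaling, filterByExpr, quasi-likelihood test, Benjamini-Hochberg adjustment over 13693 genes, threshold 0.05), checked on simulated data. SE was derived from the log2 change and its F statistic. Permutation p-values are exact and two-sided, over log2 CPM (prior count 2). Poisson intervals are exact 95% intervals and cover counting error only. The authors' FPKM were used for levels per length and as an alternative. GENCODE vM21 places all 10 genes at the positions in the count table. Named beyond the 10 genes were, of each pathway list, the 3 with the smallest p; of each marker list, the 2 most abundant and defining markers at 0 (1 such gene is not reported here); and the 3 nearest in pattern to the 2 genes with the smallest p. Plin1, Lep, Retn, Ckm, Mb, Slc27a6 and the untested Fabp genes were named after their values were seen. Genes and lists were chosen with earlier results of these data known. Alternatives were DESeq2 1.42.0, limma 3.58.1 (voom, with and without sample quality weights, and log2 of FPKM plus 1 or 0.1), other scalings and filters, and libraries left out.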

Additional observations from a re-analysis of the deposited data

How the results depend on the processing

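The directions of Cd36, Fabp1, Fabp2, Fabp4, Fabp5, Fabp7, Slc27a5 and Vldlr held in all 18 alternatives, with Cd36 between 1.43 and 1.82 on the log2 scale. With 1 library left out, log2 changes ranged from 1.43 to 1.82 for Cd36, 0.29 to 0.73 for Fabp1, 0.22 to 0.40 for Fabp2, 1.01 to 1.74 for Fabp4, −2.08 to −0.62 for Fabp5, 1.17 to 1.62 for Fabp7, −0.013 to 0.98 for Slc27a1, −0.19 to 0.37 for Slc27a4, −0.79 to −0.36 for Slc27a5 and 0.64 to 1.22 for Vldlr. Slc27a1 turned to −0.013 without KO replicate 6, and Slc27a4 to −0.13, −0.19 and −0.03 without KO replicate 5, WT replicate 2 and WT replicate 3. The cause was not tested. On the log2(FPKM + 1) scale, which shrinks scarce genes, Fabp7 was at 0.84 and Vldlr at 0.14.

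In edgeR with all libraries, 2 genes of the whole table were called higher, 0 lower and 0 of the 10. DESeq2 called 112 higher and 64 lower, with 2 of the 10, Cd36 (1.65) and Fabp4 (1.44). Limma-voom with sample quality weights called 2070 higher and 1993 lower, with 7 of the 10: Cd36 (1.58), Fabp1 (0.83), Fabp5 (−1.39), Fabp7 (1.46), Slc27a1 (1.05), Slc27a5 (−0.74) and Vldlr (1.00). EdgeR without the filter called 39 higher and 22 lower, with 1 of the 10, Cd36 (1.65). Library size alone and limma-voom without weights each called 1 gene higher. With 1 library left out, 0 to 1 genes were called higher, 0 lower and 0 of the 10, and 0 higher with WT replicate 1 and KO replicate 4 both left out. At an unadjusted p under 0.05, edgeR gave 735 higher and 440 lower genes. No paired analysis was possible because each library carries its own replicate number. Vldlr and Fabp7 rest on few reads, which limits their precision.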
